A study of Homo sapiens with 6 samples.

Results

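The 35 genes described here encode caspases, death receptors and their ligand and adaptors, the apoptosome, the inhibitors of apoptosis and the necroptosis machinery. They were chosen by gene symbol from the 20824 genes of the deposited table, without the BCL2 family, and all 35 were present. The cells were 21NT, a human breast cancer line used in the study as a model of ductal carcinoma *in situ*. Its 3 stable derivatives carried the same expression vector, either empty (21NT + EV) or with the coding sequence of one of the isoforms of *TBX3*, a T-box transcription factor (21NT + TBX3iso1 and 21NT + TBX3iso2). TBX3iso2 differs from TBX3iso1 by an additional stretch of residues, from an alternative exon, within the DNA-binding domain. All 3 lines, EV included, were kept in medium with insulin, epidermal growth factor, hydrocortisone and serum under G418 selection, and RNA was taken from growing cultures at high confluence. Each line was a single pool of resistant clones, and mRNA of each was sequenced as 2 libraries. The sources do not say that these came from separate cultures, so SDs and p-values may cover technical spread only.

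Apoptosis is reached by converging routes. In the extrinsic route, ligands such as TNFSF10 (TRAIL) bind death receptors, which recruit the adaptor FADD and the initiator caspases CASP8 and CASP10, while CFLAR blocks them. In the intrinsic route, cytochrome c (CYCS) leaves the mitochondrion and assembles APAF1 and CASP9 into the apoptosome, and XIAP, BIRC2 and BIRC3 restrain the caspases or the receptor complexes. Inflammatory caspases cleave gasdermin D in pyroptosis, and RIPK3 phosphorylates MLKL, which ruptures the membrane, in necroptosis. Most of these proteins are held inactive until they are cleaved, bound or phosphorylated, so transcript levels do not measure cell death.

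Values were reads scaled to gene length and library size (RPKM), and the libraries held 43176600 to 54512400 alignments. *TBX3* itself, counted over both isoforms, averaged 8.38 ± 0.199 RPKM in EV, 12.3 ± 1.23 with TBX3iso1 and 16.5 ± 1.41 with TBX3iso2 (SD, n = 2 in each line), and every isoform library lay above both EV libraries. Its log2 differences from EV were 0.54 and 0.97 (limma adjusted p = 0.00378 and 0.000257). Only the TBX3iso2 value passed the 1.5-fold threshold used below. *TBX3* was also higher with TBX3iso2 than with TBX3iso1, by 0.43 (limma adjusted p = 0.0275). Isoform, *TBX3* level and line therefore cannot be told apart when the isoform lines are compared. All 10 epithelial markers were at 10.2 RPKM or more in every library, with sums of 3461 to 3575 RPKM in EV, 2750 to 3001 with TBX3iso1 and 3113 to 3474 with TBX3iso2. The sums hide falls of single markers. *MUC1* read 169 and 172 RPKM in EV and 47.5 to 55.3 in the isoform lines. By the rule given below, *CDH1*, *ESRP1* and *GRHL2* were also lower with TBX3iso1, and *KRT19* and *ERBB2* with TBX3iso2. *EPCAM*, *KRT7*, *KRT8* and *KRT18* were not called. Of 7 leukocyte, 6 fibroblast and 4 endothelial markers, 6, 5 and 3 were below 1 RPKM in all 6 libraries, and *PTPRC*, the defining leukocyte marker, reached at most 0.0102 RPKM. The exceptions were *CD14*, at 9.44 to 10.7 RPKM in EV and 2.22 to 2.60 in the isoform lines, *PECAM1*, at 7.12 to 7.46 and 1.14 to 1.37, and *COL1A1*, at 4.16 to 4.44 and 6.86 to 7.84. In summed RPKM the leukocyte list ran from 9.73 to 11.1 in EV, from 2.56 to 2.91 with TBX3iso1 and from 2.57 to 2.75 with TBX3iso2. The corresponding sums were 4.60 to 4.86, 8.12 to 8.69 and 7.14 to 7.58 for fibroblasts, and 7.37 to 7.73, 1.34 to 1.36 and 1.26 to 1.46 for endothelium. Their part in the results was not tested.

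A filter at 0.5 RPKM, averaged over all libraries, kept 32 of the 35 genes. They were compared between lines with limma on log2(RPKM + 0.1), as part of the 12805 genes that passed. A gene was called differentially expressed at a Benjamini-Hochberg adjusted p under 0.05 over all genes tested and a fold change over 1.5, a log2 difference of 0.58. With TBX3iso1, 6 of the 32 genes were called against EV (18.8%), compared with 21.5% of all genes tested. The 6 comprised 2 higher, where 7.46% of all genes were higher, and 4 lower, where 14.1% of all genes were lower. With TBX3iso2, 11 genes were called (34.4%), compared with 21.2% of all genes tested. Here 7 were higher, against 8.94% of all genes, and 4 were lower, against 12.3% of all genes. The same 6 genes were called in the same direction with both isoforms (18.8%, against 13.7% of all genes), in comparisons that share the EV libraries. TBX3iso2 differed from TBX3iso1 in 1 gene, *CASP14* (3.12%, against 6.29% of all genes), which was lower, where 2.82% of all genes were lower and 3.47% higher. Without the fold threshold, 14, 14 and 5 genes had an adjusted p under 0.05 (43.8%, 43.8% and 15.6%, against 44.8%, 45.5% and 14.8% of all genes). Counted by gene, the TBX3iso1 share therefore lay near the background.

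**Figure D1:**
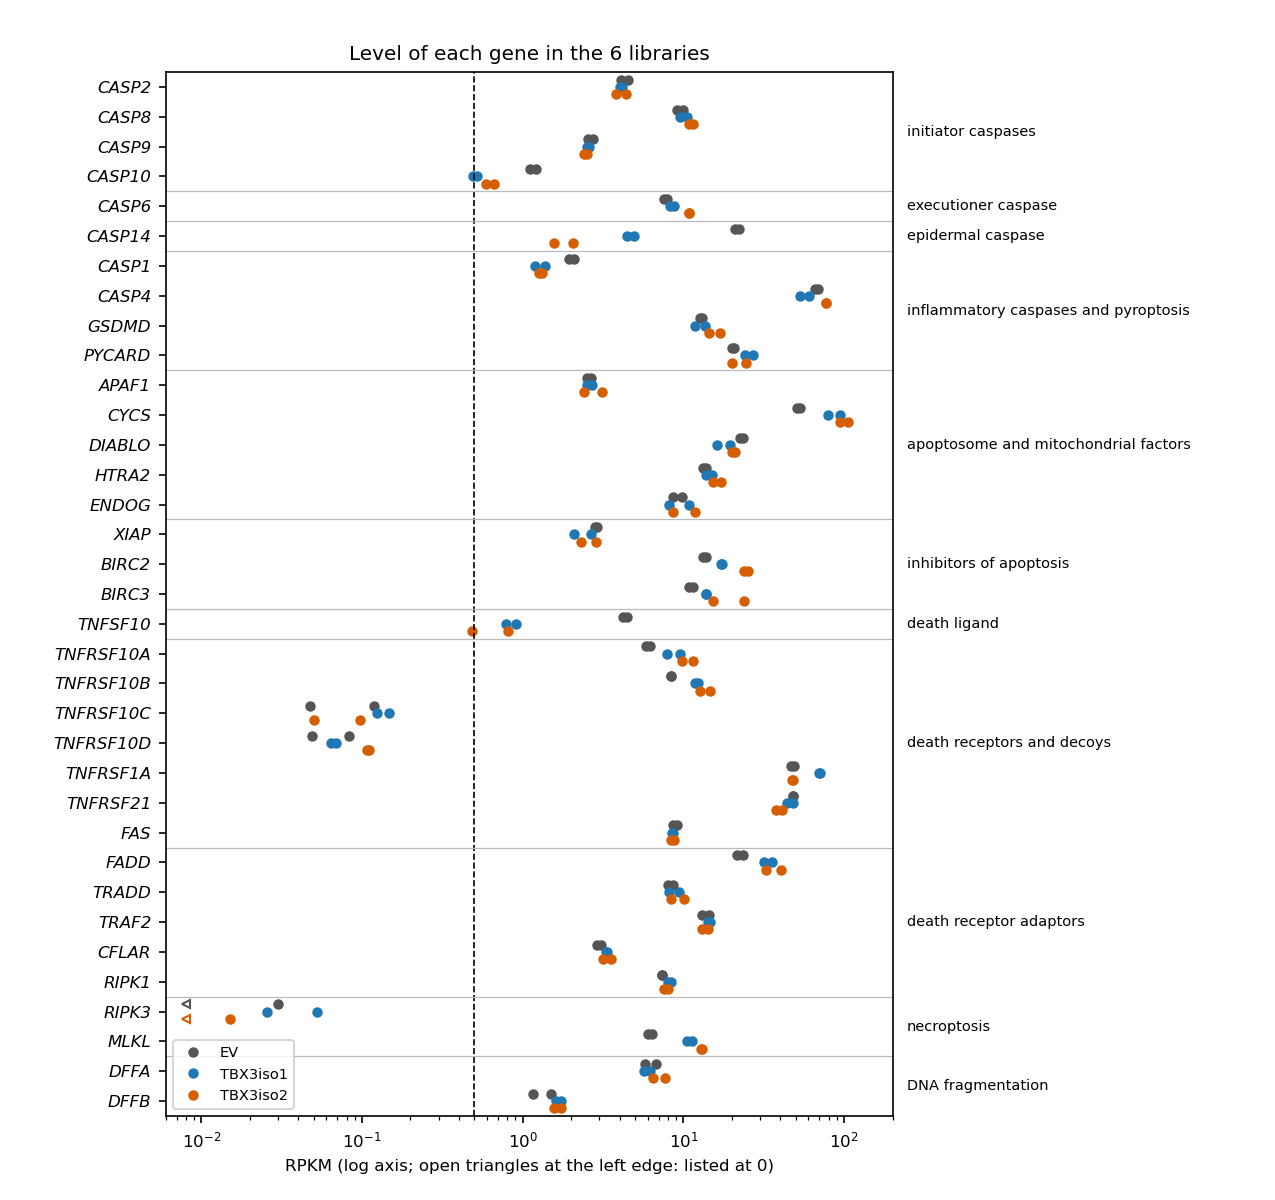
RPKM of each of the 35 genes (rows, grouped by role) in the 6 libraries on a log axis. Points are single libraries coloured by line, open triangles mark values listed at 0, and the dashed line is the filter at 0.5 RPKM. *TNFRSF10C*, *TNFRSF10D* and *RIPK3* lie to its left in every library, and the EV points of *CASP14* and *TNFSF10* lie far to the right of the isoform lines.

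The promoters of 3 genes are shown because these had the largest falls against EV or hold 2 matches to the NF-kB consensus. They are the 250 bases before the annotated start, read 5′ to 3′ on the gene's strand, from RefSeq (GRCh38.p14).
CASP14, chr19:15049230-15049479, plus strand: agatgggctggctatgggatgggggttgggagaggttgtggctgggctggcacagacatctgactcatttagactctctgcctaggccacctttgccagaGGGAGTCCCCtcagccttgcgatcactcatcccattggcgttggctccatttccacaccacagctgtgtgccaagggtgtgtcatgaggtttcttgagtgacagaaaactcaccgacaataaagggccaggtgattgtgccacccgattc
TNFSF10, chr3:172523431-172523680, minus strand: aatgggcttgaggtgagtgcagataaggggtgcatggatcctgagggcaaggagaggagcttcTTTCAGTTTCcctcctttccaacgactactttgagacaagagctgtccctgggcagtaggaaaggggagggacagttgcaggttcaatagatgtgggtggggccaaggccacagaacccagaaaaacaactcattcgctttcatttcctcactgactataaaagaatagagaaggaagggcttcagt
BIRC3, chr11:102317234-102317483, plus strand: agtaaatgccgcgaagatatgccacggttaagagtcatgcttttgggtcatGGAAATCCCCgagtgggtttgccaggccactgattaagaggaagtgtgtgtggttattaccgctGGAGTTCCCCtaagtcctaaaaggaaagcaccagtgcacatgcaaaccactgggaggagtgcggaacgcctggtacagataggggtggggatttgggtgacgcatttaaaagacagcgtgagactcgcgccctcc
Capitals mark matches to the NF-kB consensus in *CASP14* and *BIRC3* and to the interferon response element core in *TNFSF10*. The match in *CASP14* lies 150 to 141 bases before the start, those in *BIRC3* 199 to 190 and 135 to 126 bases, and that in *TNFSF10* 187 to 178 bases. RefSeq promoters were found for 25 of the 35 genes, in 43 entries, and each was searched on both strands. The T-box half-site GGTGTGA occurred in none of the 43 entries and in 2.76% of 35116 promoters of the same length. The NF-kB consensus was found for *BIRC3*, *CASP14*, *CASP2*, *CFLAR* and *FAS*, in 5 of the 43 entries, and in 9.96% of all promoters. The interferon core GAAA, any 2 bases, GAAA was found for *TNFSF10* and *RIPK1*, in 3 entries, and in 3.02% of all promoters. The *RIPK1* entries overlap and share the same match. Overlap between the motifs did not occur in the sequences shown. The promoters of *MLKL* and *CYCS*, the genes with the largest rises, held none of these motifs and are not shown. A match is a run of letters and not a measured binding site.

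*TNFSF10*, the TRAIL ligand, fell with both isoforms. Its EV libraries read 4.46 and 4.19 RPKM, those with TBX3iso1 0.791 and 0.913, and those with TBX3iso2 0.810 and 0.483. Every isoform library lay far below both EV libraries, while the isoform lines overlapped each other. Its log2 differences from EV, -2.22 and -2.60, passed the test (standard error 0.211, limma adjusted p = 0.00019 and 9.39e-05), leaving 0.215 and 0.165 of the EV level. Between the isoforms the difference was -0.38 (limma adjusted p = 0.266), and it reached -0.70 and was called when TBX3iso2 replicate 1 was left out. *TNFSF10* occupies bases 172223298 to 172241265 of chromosome 3 (GRCh37, minus strand). In bulk RNA, fewer cells with a transcript and less of it per cell cannot be told apart. The other death ligands looked at, *TNF* and *FASLG*, chosen after their values were seen, stayed at or below 0.228 and 0.0646 RPKM and were not tested.

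The receptors through which TRAIL signals rose with TBX3iso2. *TNFRSF10A* (death receptor DR4) read 6.17 and 5.88 RPKM in EV, 9.50 and 7.89 with TBX3iso1, and 11.4 and 9.85 with TBX3iso2. The EV libraries were the lowest in both comparisons, without overlap. It differed from EV by 0.52 with TBX3iso1 and 0.80 with TBX3iso2 on the log2 scale (standard error 0.116, limma adjusted p = 0.00912 and 0.00124), and only the TBX3iso2 value passed the fold threshold. *TNFRSF10B* (DR5) read 8.41 and 8.42 RPKM in EV, 12.3 and 11.8 with TBX3iso1, and 14.7 and 12.6 with TBX3iso2. Its lines also stood in that order without overlap. It differed from EV by 0.51 and 0.69 (standard error 0.0925, limma adjusted p = 0.00355 and 0.000874), again past the fold threshold with TBX3iso2 only. Neither gene differed detectably between the isoforms, by 0.29 and 0.18 (limma adjusted p = 0.14 and 0.239). Without TBX3iso2 replicate 1 the *TNFRSF10B* value was 0.58, just under the threshold, and without TBX3iso1 replicate 2 the TBX3iso1 value of *TNFRSF10A* was 0.65 and was called. Under median-ratio scaling the TBX3iso1 values of both receptors were called, at 0.60 and 0.59.

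The decoy receptors were scarcely transcribed. *TNFRSF10C*, which lacks a death domain, was at 0.0472 to 0.147 RPKM, and *TNFRSF10D*, whose death domain is truncated, at 0.0486 to 0.110 RPKM, which is 2.04 to 7.52 and 2.10 to 5.60 reads per kilobase at the alignments given. Both were below the filter in all 6 libraries and were not tested. The 4 receptor genes are neighbours on chromosome 8, with gaps of 33.9, 18.1 and 26.4 kb between adjacent genes, and are similar in sequence, so reads that align to more than one of them may have been split between genes.

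Among the other receptors, *TNFRSF1A*, the main TNF receptor of epithelial cells, separated the isoforms by size without being called. Its libraries read 48.5 and 47.0 RPKM in EV, 70.3 and 69.8 with TBX3iso1, and 47.8 and 47.7 with TBX3iso2. The TBX3iso2 libraries lay within the EV range and both TBX3iso1 libraries stood above it. TBX3iso1 differed from EV by 0.55 (standard error 0.0671, limma adjusted p = 0.000584) and TBX3iso2 from TBX3iso1 by -0.55 (limma adjusted p = 0.0027), both under 1.5-fold, while TBX3iso2 differed from EV by 0.00 (limma adjusted p = 0.993). With median-ratio scaling both values passed the fold threshold, at 0.63 and -0.60. *FAS*, the receptor of FASLG, stood at 8.32 to 9.15 RPKM in all libraries and differed from EV by -0.05 with each isoform, signs that turned to 0.03 and 0.05 for TBX3iso1 under median-ratio scaling and quantile normalization. *TNFRSF21* (DR6) read 48.4 and 47.8 RPKM in EV, 48.4 and 44.4 with TBX3iso1, and 40.9 and 37.5 with TBX3iso2. It differed from EV by -0.29 with TBX3iso2 (limma adjusted p = 0.0188), under the fold threshold.

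Of the 5 adaptors and regulators of the receptor complex, *FADD*, which bridges receptor and caspase, rose with TBX3iso2. It read 23.4 and 21.5 RPKM in EV, 31.6 and 35.6 with TBX3iso1, and 32.8 and 40.3 with TBX3iso2. All isoform libraries were above both EV libraries, and the isoform lines overlapped. *FADD* lay 0.58 and 0.70 above EV on the log2 scale (standard error 0.113, limma adjusted p = 0.00501 and 0.00216), the former just short of the fold threshold. The TBX3iso2 call was lost without TBX3iso2 replicate 2 (0.55) and without moderation (adjusted p = 0.0603). TBX3iso1 was called without EV replicate 1 (0.64), without TBX3iso1 replicate 1 (0.67) and with median-ratio scaling (0.66). *CFLAR*, the inhibitor of CASP8 at the receptor, was at 2.90 and 3.05 RPKM in EV, 3.32 and 3.31 with TBX3iso1, and 3.53 and 3.15 with TBX3iso2. *RIPK1*, the kinase shared by survival and death complexes, was at 7.33 and 7.37 RPKM, 8.41 and 7.97, and 8.03 and 7.55 in the same order. Neither was called, with values of 0.15 and 0.16 for *CFLAR* and 0.15 and 0.08 for *RIPK1*. *TRADD* and *TRAF2*, which couple TNFRSF1A to RIPK1 and to ubiquitin ligases, differed from EV by at most 0.15.

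**Figure D2:**
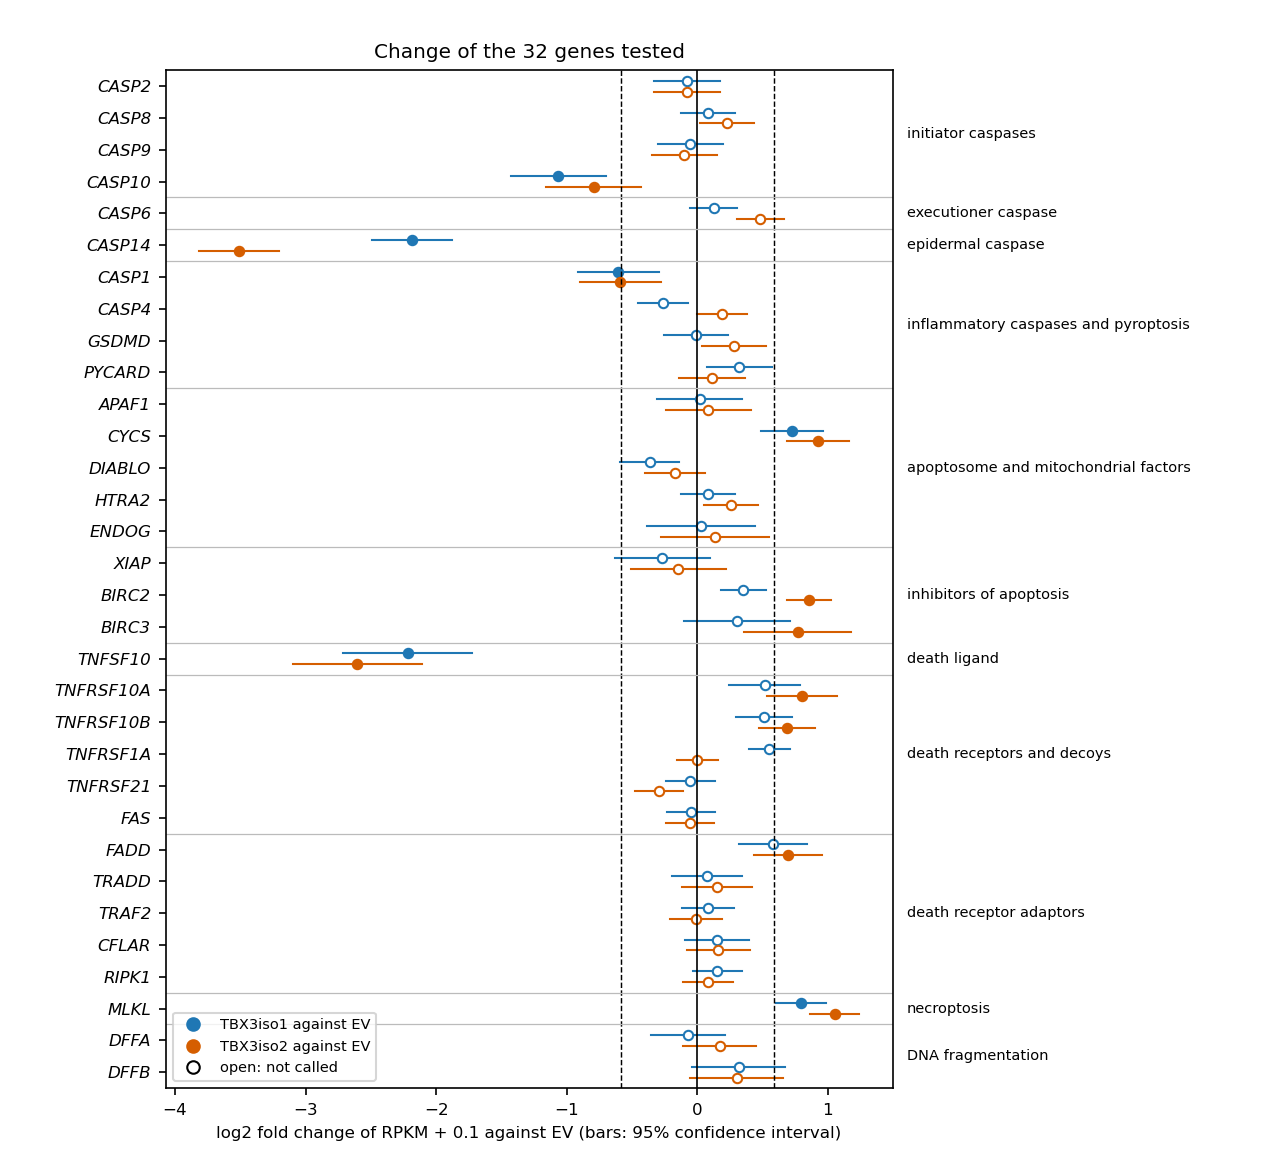
Log2 fold change of log2(RPKM + 0.1) against EV for the 32 genes tested (rows, grouped by role), with 95% confidence intervals. Filled points are called and open points are not. *TNFSF10* and *CASP14* lie furthest to the left with both isoforms and *MLKL* and *CYCS* furthest to the right.

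Among the initiator caspases, only *CASP10* changed. It read 1.21 and 1.11 RPKM in EV, 0.491 and 0.517 with TBX3iso1, and 0.666 and 0.591 with TBX3iso2. Both isoform lines were below EV without overlap, and TBX3iso1 was the lower of them. On the log2 scale it differed from EV by -1.06 and -0.79 (standard error 0.156, limma adjusted p = 0.00137 and 0.00492). *CASP10* had the lowest mean of the genes called, at 25.1 to 66.2 reads per kilobase, and with a pseudocount of 1 RPKM its values were -0.52 and -0.41, and neither was called. *CASP10* lies on chromosome 2 of GRCh37 between *CFLAR*, 6.2 kb away, and *CASP8*, 4.0 kb away, on the same strand. *CASP8* read 9.92 and 9.13 RPKM in EV, 10.6 and 9.58 with TBX3iso1, and 11.5 and 10.8 with TBX3iso2. Its values were 0.08 and 0.23 (limma adjusted p = 0.49 and 0.0689), so of the 3 neighbours only the middle gene was called. *CASP9*, the apoptosome's caspase, differed from EV by -0.05 and -0.10, and *CASP2*, which acts in the PIDDosome, by -0.08 and -0.08. Under quantile normalization these became 0.16 and 0.07 for *CASP9* and 0.08 and 0.04 for *CASP2*, so no direction is given.

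*CASP6*, the effector caspase of the group, which cleaves lamin A, read 7.62 and 7.85 RPKM in EV, 8.21 and 8.68 with TBX3iso1, and 10.8 and 10.9 with TBX3iso2. The 3 lines did not overlap. It differed from EV by 0.12 (limma adjusted p = 0.221) and 0.48 (limma adjusted p = 0.00205) and between the isoforms by 0.36 (limma adjusted p = 0.0222), under the fold threshold throughout.

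*CASP14*, a caspase of terminally differentiating keratinocytes that processes filaggrin and is not thought to act in apoptosis, fell with both isoforms, and its change with TBX3iso2 was the largest of the group. It read 22.2 and 20.9 RPKM in EV, 4.89 and 4.45 with TBX3iso1, and 2.06 and 1.57 with TBX3iso2. The 3 lines were fully separated, with TBX3iso2 lowest. The log2 differences from EV of -2.18 and -3.51 (standard error 0.132, limma adjusted p = 2.74e-05 and 4.4e-06) left 0.220 and 0.0877 of the EV level. TBX3iso2 was also below TBX3iso1 by -1.33 (limma adjusted p = 0.00115), the only such call in the group. In a linear model without moderation, the difference between the isoforms missed the threshold (adjusted p = 0.0656). The gene occupies bases 15160291 to 15169104 of chromosome 19 (GRCh37, plus strand).

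Of the 5 apoptosome and mitochondrial factors, *CYCS* rose with both isoforms. Cytochrome c transcripts read 51.0 and 53.4 RPKM in EV, 79.5 and 93.7 with TBX3iso1, and 93.6 and 105 with TBX3iso2. Every isoform library was above both EV libraries, and the isoform lines overlapped slightly. It lay 0.72 and 0.93 above EV on the log2 scale (standard error 0.103, limma adjusted p = 0.00117 and 0.000366), or 1.65-fold and 1.90-fold. *CYCS* has many processed pseudogenes, and reads shared with them may have been placed on either. *APAF1*, the scaffold that cytochrome c binds, was at 2.41 to 3.12 RPKM and differed from EV by 0.02 and 0.09. *DIABLO* and *HTRA2*, mitochondrial proteins that antagonise the inhibitors of apoptosis, moved apart by value, at -0.36 and -0.17 for *DIABLO* and at 0.08 and 0.26 for *HTRA2*, none of them called. The nuclease *ENDOG* was at 8.09 to 11.8 RPKM, with values of 0.03 and 0.14 that turned to -0.18 without TBX3iso1 replicate 2 and -0.09 without TBX3iso2 replicate 2.

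The inhibitors of apoptosis *BIRC2* and *BIRC3*, ubiquitin ligases of the TNF receptor complexes, rose with TBX3iso2. *BIRC2* read 13.7 and 13.3 RPKM in EV, 17.1 and 17.4 with TBX3iso1, and 25.4 and 23.7 with TBX3iso2. The lines were fully separated in that order. It differed from EV by 0.35 with TBX3iso1 and 0.86 with TBX3iso2 (standard error 0.0728, limma adjusted p = 0.0063 and 0.000118), and TBX3iso2 was above TBX3iso1 by 0.50 (limma adjusted p = 0.00525), under the fold threshold. *BIRC3* read 10.9 and 11.5 RPKM in EV, 13.7 and 13.9 with TBX3iso1, and 23.7 and 15.3 with TBX3iso2. Its lines did not overlap either, but the TBX3iso2 libraries lay far apart, with replicate 1 the higher. The values were 0.31 (limma adjusted p = 0.189) and 0.77 (standard error 0.175, limma adjusted p = 0.00955). The call did not hold without TBX3iso2 replicate 1 (0.46), without EV replicate 1 (0.73, limma adjusted p = 0.0692) or without EV replicate 2 (0.81, limma adjusted p = 0.0532), nor with no filter (limma adjusted p = 0.0528) or without moderation (adjusted p = 0.125). Without TBX3iso2 replicate 2 the difference between the isoforms was 0.78 and was called. The genes are 7.8 kb apart on chromosome 11 and are paralogs. *XIAP*, which binds caspases directly, was at 2.07 to 2.91 RPKM and differed from EV by -0.27 and -0.14, not called.

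**Figure D3:**
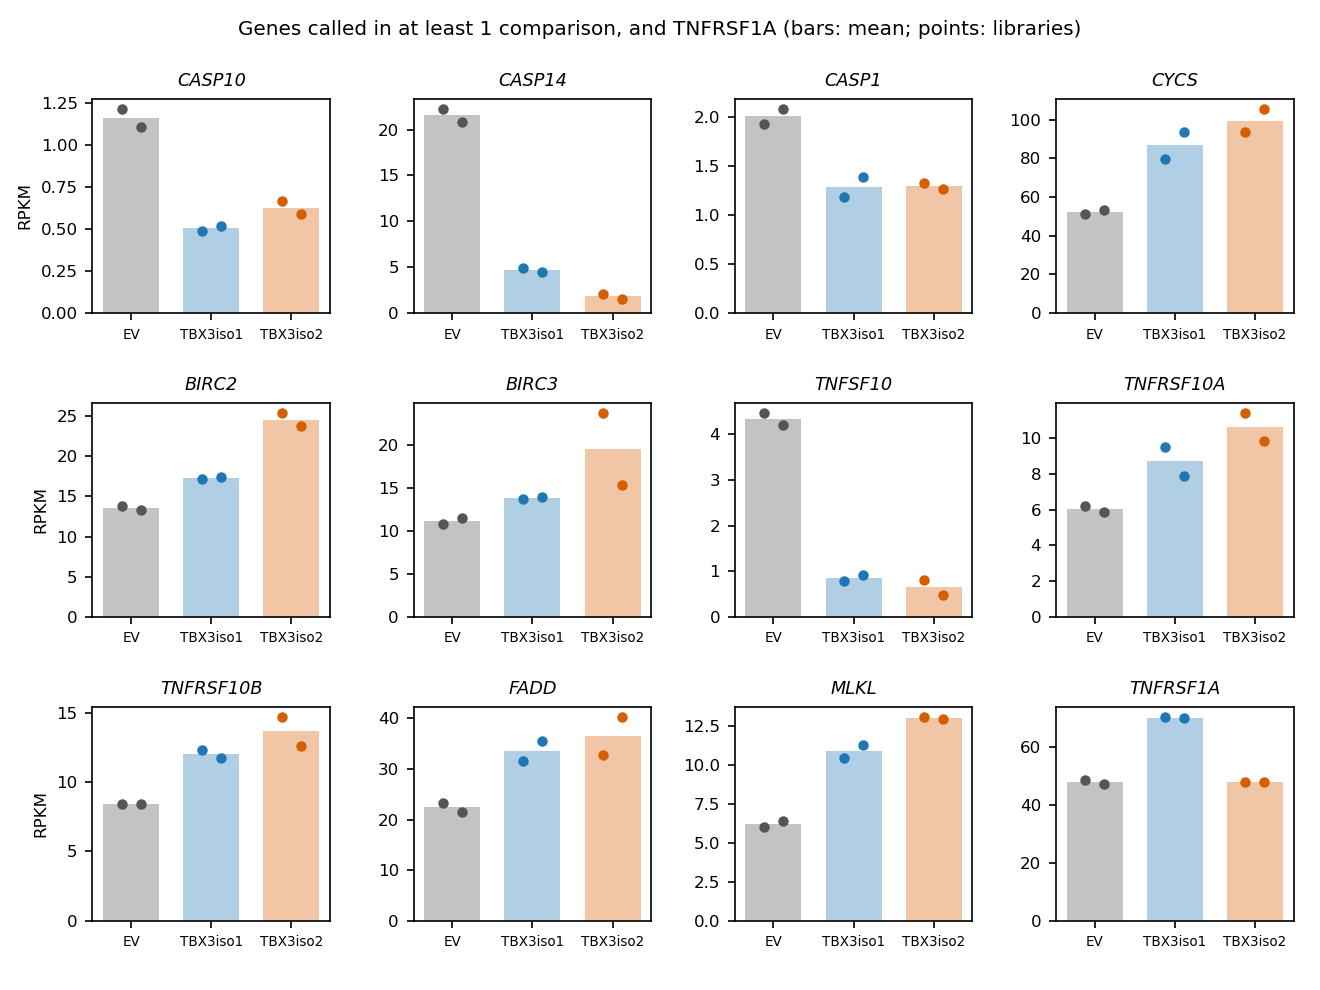
RPKM by line for the 11 genes called in at least 1 comparison and for *TNFRSF1A*, which was added after its values were seen. Bars are means of 2 libraries on axes that start at 0 and points are the single libraries. *CASP14*, *TNFSF10*, *CASP10* and *CASP1* are highest in EV, *TNFRSF1A* stands out with TBX3iso1, and the TBX3iso2 points of *BIRC3* lie far apart.

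*CASP1*, the caspase of the inflammasome that matures IL1B and cleaves gasdermin D, fell with both isoforms by little more than the fold threshold. It read 1.93 and 2.08 RPKM in EV, 1.19 and 1.38 with TBX3iso1, and 1.33 and 1.27 with TBX3iso2. The EV libraries were above all others, and the isoform lines overlapped. On the log2 scale it lay at -0.60 and -0.59 relative to EV (standard error 0.133, limma adjusted p = 0.00837 and 0.00906). Without EV replicate 2 they were -0.55 and -0.54, without TBX3iso1 replicate 1 the former was -0.50, and without TBX3iso2 replicate 2 the latter was -0.56, all under the threshold. Scaling ended the calls as well, at -0.53 and -0.56 by median ratio and -0.40 and -0.43 by quantile. *CARD16*, whose sequence closely matches the recruitment domain of *CASP1*, read 1.19 and 1.88 RPKM in EV, 2.10 and 2.39 with TBX3iso1, and 0.950 and 0.631 with TBX3iso2. How reads shared by these genes were placed was not tested.

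The remaining pyroptosis genes were not called. *CASP4*, the sensor of intracellular lipopolysaccharide and 56.0 kb from *CASP1*, was abundant, at 66.3 and 68.7 RPKM in EV, 52.9 and 60.0 with TBX3iso1, and 76.7 and 77.4 with TBX3iso2. TBX3iso1 lay below EV and TBX3iso2 above it, by -0.26 (limma adjusted p = 0.0362) and 0.19 (limma adjusted p = 0.0948). The isoforms differed by 0.45 (standard error 0.0827, limma adjusted p = 0.0122), under the fold threshold. The inflammasome adaptor *PYCARD* differed from EV by 0.32 (limma adjusted p = 0.0418) and 0.11, the latter turning to -0.03 without TBX3iso2 replicate 2. *GSDMD*, the pore former, was at 12.6 to 16.8 RPKM and differed by -0.01 and 0.28 (limma adjusted p = 0.0619 for the latter).

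In necroptosis the executor and its kinase were measured at very unequal levels. *MLKL* read 6.02 and 6.40 RPKM in EV, 10.5 and 11.3 with TBX3iso1, and 13.1 and 12.9 with TBX3iso2. The lines were fully separated in that order. Relative to EV this was 0.80 and 1.05 on the log2 scale (standard error 0.0811, limma adjusted p = 0.000265 and 7.33e-05), or 1.74-fold and 2.08-fold, the largest rises of the group. Between the isoforms it differed by 0.26 (limma adjusted p = 0.0737). *RIPK3*, the kinase that activates MLKL, was listed at 0 and 0.0298 RPKM in EV, at 0.0255 and 0.0525 with TBX3iso1, and at 0 and 0.0151 with TBX3iso2, which is at most 2.64 reads per kilobase. It was not tested, and no difference could be seen at this depth. *MLKL* occupies bases 74705753 to 74734858 of chromosome 16 (GRCh37, minus strand). *DFFB*, the nuclease that fragments DNA in apoptosis, and its inhibitor *DFFA* were not called, at 0.32 and 0.30 for *DFFB* and -0.07 and 0.17 for *DFFA*.

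Over the 32 genes tested, the median log2 fold change was 0.08 with TBX3iso1, where all genes tested had -0.05, and 0.14 with TBX3iso2, where all genes had -0.00206. Values were above 0 for 19 genes with TBX3iso1 and for 20 with TBX3iso2. The 26 genes not called with TBX3iso1 ran from -0.36 to 0.58, and the 21 not called with TBX3iso2 from -0.29 to 0.48. Between the isoforms the median was 0.11, with 0.05 over all genes. The libraries of the isoform line and EV did not overlap for 20 genes with TBX3iso1 (62.5%, against 78.4% of all genes) and for 22 with TBX3iso2 (68.8%, against 74.7%), and the isoform lines were apart for 17 (53.1%, against 53.5%). The directions with TBX3iso1 depended on scaling. Of the genes called, 2 were higher and 4 lower as reported, 6 and 3 with median-ratio scaling, and 4 and 3 with quantile normalization. Over all genes the same counts were 955 and 1802, 1263 and 1445, and 1259 and 1313. With TBX3iso2 they were 7 and 4, 7 and 3, and 7 and 3 in the group, and 1145 and 1575, 1276 and 1456, and 1315 and 1338 over all genes.

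Further cell death genes were read from a list of 68, of which 66 were in the table and 49 were tested. With TBX3iso1, 7 were higher and 3 lower (20.4% called), where 7.46% of all genes were higher and 14.1% lower. With TBX3iso2, 8 were higher and 4 lower (24.5% called), where 8.94% of all genes were higher and 12.3% lower. Only the shares counted in either direction lay near the 21.5% and 21.2% of all genes. The medians were 0.03 and 0.06. *NLRP1*, a sensor that activates CASP1, rose most, from 1.07 and 1.03 RPKM in EV to 5.89 and 4.52 with TBX3iso1 and 8.40 and 7.09 with TBX3iso2 (2.19 and 2.76 on the log2 scale, limma adjusted p = 4.25e-05 and 1.58e-05). *DFNA5* and *GSDMC*, both gasdermins, moved in opposite directions, while *GSDMD* was not called and *GSDMA* and *GSDMB* were below the filter. *DFNA5* (gasdermin E) read 3.93 and 4.26 RPKM in EV and 8.60 to 10.6 in the isoform lines (1.09 and 1.29, limma adjusted p = 0.000108 and 5.27e-05). *GSDMC* read 7.26 and 6.77 RPKM in EV, 2.01 and 2.33 with TBX3iso1, and 3.58 and 3.67 with TBX3iso2 (-1.65 and -0.93, limma adjusted p = 3.64e-05 and 0.000442). *UNC5B*, a dependence receptor for netrin, fell by 2.32 and 3.23 on the log2 scale (limma adjusted p = 3.48e-05 and 9.72e-06). *IL1B*, a substrate of CASP1, fell with TBX3iso2, from 2.46 and 3.39 RPKM in EV to 1.61 and 1.28, by 0.96 on the log2 scale (limma adjusted p = 0.00348).

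The NF-kB, interferon and p53 programmes, each known to include genes of this group, were read beside it. Of 25 NF-kB target genes, *BIRC3* among them, 6 were higher and 4 lower with TBX3iso1 (40% called, against 21.5% of all genes), 15 were higher and 0 lower with TBX3iso2 (60%, against 21.2%), and 9 were higher and 0 lower between the isoforms (36%, against 6.29%). The last count fell to 6 with no filter and to 2 without moderation. At an unadjusted limma p under 0.05 there were still 0 lower with TBX3iso2 or between the isoforms, and 17 and 14 were higher. The NF-kB medians were 0.02, 0.76 and 0.40. Without TBX3iso2 replicate 1, the library in which *BIRC3* was highest, 12 were higher and 1 lower with TBX3iso2, with a median of 0.55. *CXCL8*, a neutrophil chemokine, read 15.2 and 17.8 RPKM in EV, 6.70 and 7.79 with TBX3iso1, and 67.4 and 51.2 with TBX3iso2. It fell with TBX3iso1 and rose with TBX3iso2, by -1.18 and 1.83 (limma adjusted p = 0.000636 and 8.53e-05). Not all genes of the list did so. *CD83* rose with both isoforms, by 1.85 and 1.79 (limma adjusted p = 1.34e-05 and 1.53e-05). Of 21 interferon-induced genes tested, 0 were higher (3 at an unadjusted p under 0.05) and 9 lower with TBX3iso1 (42.9%, against 21.5%), and 1 was higher and 7 lower with TBX3iso2 (38.1%, against 21.2%), with medians of -0.19 and -0.09. By unadjusted limma p under 0.05, 10 of these genes fell in the TBX3iso1 line. In the TBX3iso2 line 6 rose and 9 fell by that rule, so its directions were mixed. Compared directly, the TBX3iso2 line had 2 called rises and 0 called falls relative to the TBX3iso1 line, with a median of 0.23. Without adjustment these were 10 rises and 1 fall. *GBP2*, an interferon-induced GTPase, had the largest fall, from 9.00 and 9.88 RPKM to between 0.844 and 1.21 in the isoform lines. Its log2 differences from EV were -3.29 and -2.95 (limma adjusted p = 4.31e-06 and 6.77e-06). Of 21 p53 target genes tested, 2 were higher and 4 lower with TBX3iso1 (28.6%, against 21.5%) and 1 was higher and 3 lower with TBX3iso2 (19%, against 21.2%), with medians of -0.22 and -0.11. These p53 shares lay near those of all genes. *TP53INP1* fell by 2.37 and 2.56 on the log2 scale (limma adjusted p = 4.37e-05 and 3.16e-05), and *BBC3*, which encodes PUMA, by 1.29 and 1.17 (limma adjusted p = 6.07e-05 and 9.39e-05). The study's supplement lists *BBC3* among genes that both isoforms bound on the arrays and that hold a T-box element. These lists and the 35 genes were drawn up with earlier results of these data known.

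**Figure D4:**
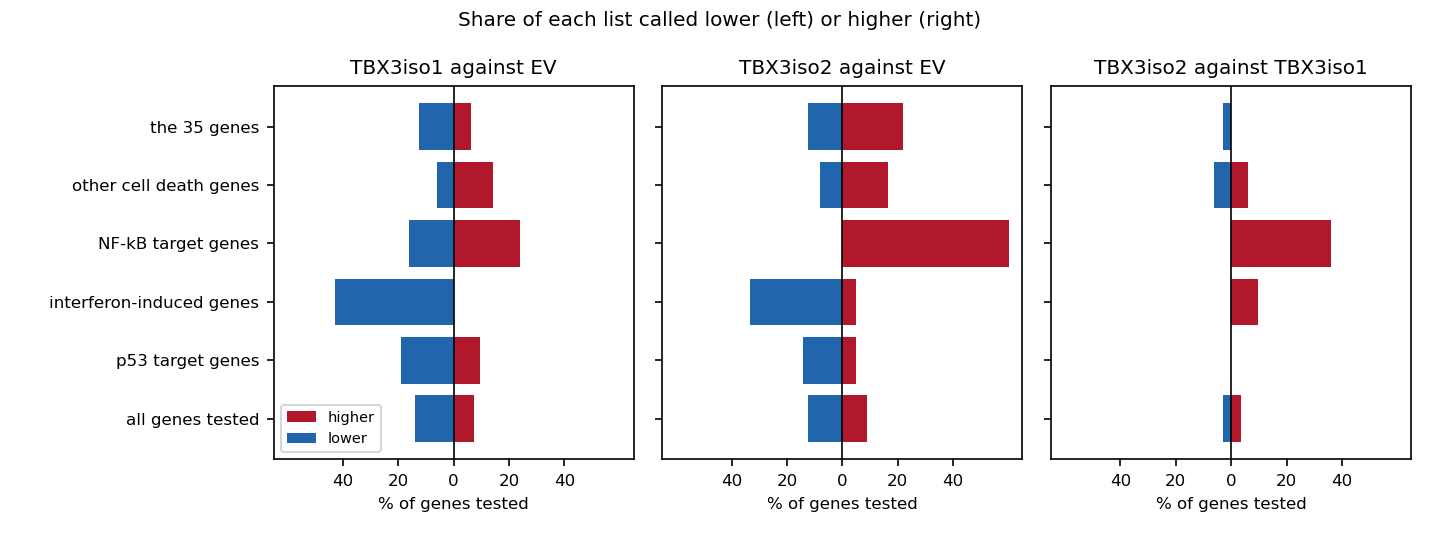
Share of the genes tested in each list that was called lower (left) or higher (right), in 3 panels for the comparisons of the lines. The bar for NF-kB target genes with TBX3iso2 reaches 60%, all higher, where 8.94% of all genes tested were higher. That for interferon-induced genes with TBX3iso1 reaches 42.9%, all lower, where 14.1% of all genes tested were lower.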

How the data were processed

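RNA of 3 stably transfected 21NT lines, 2 libraries each, was made into stranded mRNA libraries and sequenced as paired-end reads. Alignment to hg19 was done by the authors with TopHat in Galaxy, and they deposited RPKM values computed in Partek Genomics Suite, on the linear scale, with the number of alignments of each library (43176600 to 54512400). Software versions and the gene annotation are not given in the sources used here. TopHat kept reads with several alignments, which bears on paralogs and pseudogenes. The files hold no counts, so the spread between libraries stands for precision.

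The 35 genes, their roles and the other lists were chosen with earlier results of these data known. RPKM values were taken to log2 after adding 0.1, genes averaging under 0.5 RPKM were dropped (12805 of 20824 kept), and the lines were compared in limma 3.58.1 (R 4.3.3) with 1 mean per line, a trended prior and Benjamini-Hochberg adjustment. Calls required a change of 1.5-fold at an adjusted p under 0.05, the thresholds of the study's methods. All 35 genes were named by role, those called with the values of each library. Of the other lists, only some of the called genes were named, not in the order of their changes. Reads per kilobase are RPKM scaled by the alignments of the library. The model was tested on simulated data. Gene positions come from GENCODE on GRCh37 and promoters from RefSeq on GRCh38.p14. Alternatives were other pseudocounts, filters and scalings, a replicate block, fits with only the lines compared, without trend or without moderation, and leaving out each library. With 2 libraries per line no exact permutation test could pass.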

Additional observations from a re-analysis of the deposited data

Results flagged for a closer look

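*CASP14* was the only gene of the group called between the isoform lines, at an adjusted p under 0.05 and over 1.5-fold. It stood at -1.33 on the log2 scale for TBX3iso2 relative to TBX3iso1 (limma, Benjamini-Hochberg adjusted p = 0.00115, lower in both TBX3iso2 libraries). *TNFRSF1A* (-0.55), *BIRC2* (0.50), *CASP4* (0.45) and *CASP6* (0.36) also had an adjusted p under 0.05, but changed by less than 1.5-fold. *TBX3* was higher in the TBX3iso2 line, by 0.43 (limma adjusted p = 0.0275), and each line was a single pool of clones. Whether these differences follow isoform, *TBX3* level or line cannot be told apart. Other list genes called between the isoform lines included *CXCL8* at 3.01, *CXCL3* at 2.58, *CXCL2* at 2.39, *GBP1* at 0.78 and *GSDMC* at 0.72, all higher with TBX3iso2, and *CARD16* at -1.42, *UNC5B* at -0.91 and *IL1B* at -0.88, all lower.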

How the results depend on the processing

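Over 16 alternatives, of 1524 values of single genes, 21 lost a call and 13 gained one. A further 58 turned sign, none of them called, 18 by more than 1 standard error of the reported value and 40 by less. The numbers called with TBX3iso1, TBX3iso2 and between the isoforms were 6, 11 and 1. With a filter at 2 RPKM, which removes *CASP1*, *CASP10* and *TNFSF10*, 3 were called with TBX3iso1, and 1 was lower with each isoform. With a pseudocount of 1 RPKM, 2 were lower with each isoform. Median-ratio scaling gave 6 higher with TBX3iso1, 2 called between the isoforms, both lower, and medians of 0.16, 0.18 and 0.061. Quantile normalization gave 4 higher, 2 called between the isoforms, both lower, and medians of 0.17, 0.18 and 0.054. Without limma's moderation 0 were called between the isoforms (8 had an unadjusted p under 0.05, and 1 was called with moderation), and *CASP14* stood at -1.33 with adjusted p = 0.0656.

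Leaving out each library in turn gave 5 to 7 called with TBX3iso1 (2 to 3 higher, 3 to 4 lower), 9 to 11 with TBX3iso2 (5 to 7 higher, 3 to 4 lower) and 1 to 2 between the isoforms (0 to 1 higher, 1 to 2 lower), with medians of 0.015 to 0.11, 0.092 to 0.15 and 0.047 to 0.13. A lone library was assumed to vary like those of the other lines.

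Signs turned by more than 1 standard error under quantile normalization for *CASP2* (0.083 and 0.040), *CASP9* (0.16 and 0.071), *XIAP* with TBX3iso2 (0.014) and *FAS* with TBX3iso1 (0.053), and under median-ratio scaling for *TNFRSF21* and *FAS* with TBX3iso1 (0.031 and 0.033). With a library left out, this was seen for *ENDOG* with TBX3iso1 (-0.18 to 0.24), with TBX3iso2 (-0.090 to 0.36) and between the isoforms (-0.12 to 0.33), and for *PYCARD* (-0.030 to 0.26) and *APAF1* (-0.094 to 0.26) with TBX3iso2. Between the isoforms it was also seen for *APAF1* (-0.11 to 0.25), *XIAP* (-0.054 to 0.30), *FADD* (-0.034 to 0.26) and *TRADD* (-0.047 to 0.21). The cause was not tested.

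The replicate numbers are shared between lines, but the labels do not say that they mark a batch. Deviations of same-numbered libraries correlated at 0.22, 0.11 and 0.50, and a model with the replicate number as a block called 6, 11 and 1 genes.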
